A study of Gallus gallus with 3 samples.

Results

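The immediate-early and AP-1 transcription factors examined here were FOS, JUN, JUND, FOSL2, EGR1, ATF3, MAFA, MAFF and MAFK, 9 genes listed by name. A probe was assigned to one of them when the RefSeq accession printed for it in the scanner file belonged to a gene of that symbol in the RefSeq annotation of chicken. This found 10 probes for 7 of the 9 genes, among 11935 probes that could be named for 5382 genes on an array of 43603 probes. JUN (NM_001031289), FOS (NM_205508) and EGR1 (NM_204136) had 2 probes each, and FOSL2 (NM_001045836), MAFF (NM_204757), MAFK (NM_204756) and MAFA (NM_205025) had 1 each. JUND and ATF3 were matched by no named probe and are not analysed here.

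AP-1 is a dimer of leucine-zipper proteins of the JUN, FOS, ATF and MAF families that binds DNA and switches genes on or off after a cell receives a signal. FOS, JUN and EGR1 are immediate-early genes, whose RNA appears quickly after stimulation, without new protein synthesis, and is then rapidly degraded. In B cells these genes respond to signals from the B-cell receptor through the RAS and MAP kinase pathway. MAFF and MAFK are small MAF proteins, which lack an activation domain of their own and pair with partners such as NRF2.

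The cells were DT40, a chicken B-cell lymphoma line. Scanner values come from 1 single-colour array for each of 3 lines: wild-type DT40, double-knockout cells carrying H2A.Z1 (DKO + H2A.Z1), and double-knockout cells carrying H2A.Z1ΔC (DKO + H2A.Z1ΔC). A second set of values for DKO + H2A.Z1, described below, has an unknown source array. H2A.Z is a histone variant that takes the place of H2A in some nucleosomes, and ΔC marks a form lacking the C-terminus. Both DKO lines thus share the double knockout and differ in the H2A.Z1 they carry. Whether each line is a single clone is not given in the sources used here. With 1 array per group there was no replicate and no test, so every difference below compares arrays and not conditions.

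The wild-type and DKO + H2A.Z1 arrays came from slide 1 and scan 1, and the DKO + H2A.Z1ΔC array from slide 2 and scan 2. Slide and line cannot be told apart in any comparison with that array. Between 68.7% and 72.6% of probes were well above background on an array, by the scanner software's call. The probes of H2AFZ, the gene of H2A.Z1, stood at 58.4 and 71.8 times the 75th percentile of the array in wild type, at 1.75 and 0.805 times in DKO + H2A.Z1 (1.26 and 0.641 times by matrix values), and at 0.864 and 0.554 times in DKO + H2A.Z1ΔC. Of 10 B-cell markers with a named probe, 9 were well above background in wild type and all 10 on both DKO arrays. Their summed signal was 80.7 times the 75th percentile in wild type, 92.1 in DKO + H2A.Z1 and 93.9 in DKO + H2A.Z1ΔC. The summed signal of 7 T-cell markers was 47.2, 40.5 and 27.8 times the 75th percentile on the wild-type, DKO + H2A.Z1 and DKO + H2A.Z1ΔC arrays, with CD4 not well above background on any. The T-cell markers did not all move the same way. In DKO + H2A.Z1ΔC against wild type 4 of 6 measured ones were higher, with log2 differences from -0.78 to 0.66 and a median of 0.07. In DKO + H2A.Z1 against wild type 1 of 6 was higher by scanner values, against 46.4% of named genes. Those differences ran from -1.75 to 2.09 with a median of -0.13, and by matrix values 3 of 6 were higher. The summed signals were at most 0.170 for 8 red-cell markers, 0.841 for 7 myeloid markers and 0.316 for 7 fibroblast markers. The part of these markers in the results was not tested.

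The DKO + H2A.Z1 sample has a second set of values, in the deposited series matrix. The matrix values of the wild-type and DKO + H2A.Z1ΔC samples were their scanner signals times 1.07 and 1.53. Those of the DKO + H2A.Z1 sample departed from its scanner signal by a robust standard deviation of 0.332 on the log2 scale over 30103 spots. Their source array is unknown, so values of this sample come from the scanner file unless the matrix is named, and the matrix value is set beside them for the members and for each gene and list described.

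JUN, MAFF and MAFK were well above background on all 3 arrays, and in each of their probes wild type was the lowest array and DKO + H2A.Z1ΔC the highest by scanner values. FOS was well above background on all arrays at a dim signal, and its probes differed in direction in both comparisons with DKO + H2A.Z1ΔC. In DKO + H2A.Z1 against wild type both were below 0, probe 2 only at -0.03 (log2). EGR1 was well above background on the DKO + H2A.Z1ΔC array and on neither other array, close to the limit of measurement. FOSL2 and MAFA were not well above background on any array. None of the 4 genes measured on all arrays differed by 2-fold or more in any comparison. Levels are given as the processed signal divided by the array's 75th percentile, and each probe is compared with itself across arrays, since signals of different probes are not comparable.

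JUN encodes c-Jun, the central AP-1 subunit, which can pair with itself or with a FOS protein. Probe 1 of JUN stood at 1.90 times the 75th percentile in wild type, 2.53 times in DKO + H2A.Z1 and 3.08 times in DKO + H2A.Z1ΔC. Probe 2 stood at 0.832, 1.10 and 1.48 times on the same arrays. Both probes thus placed the arrays in the same order. The differences from wild type were 0.41 and 0.40 (log2) in DKO + H2A.Z1 and 0.70 and 0.83 in DKO + H2A.Z1ΔC, for probes 1 and 2. The scanner software assigns each of these differences an error of 0.204, a figure that covers the spot and not culture, RNA preparation or labelling. The gap between the JUN probes was 0.13 in DKO + H2A.Z1ΔC against wild type, below the median of 0.184 over 1404 genes with a pair of probes. The order of the DKO lines was less secure: with the matrix values JUN stood at 2.85 and 1.57 times the 75th percentile in DKO + H2A.Z1, and the mean difference between the DKO lines shrank from 0.36 to 0.02.

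MAFF, a small MAF protein, stood at 2.29 times the 75th percentile in wild type, 2.87 times in DKO + H2A.Z1 and 3.47 times in DKO + H2A.Z1ΔC. Its matrix value in DKO + H2A.Z1 was 2.79 times, so the order of the arrays was the same with both sets. The difference from wild type was 0.32 (log2, 1.25-fold) in DKO + H2A.Z1 and 0.60 (1.51-fold) in DKO + H2A.Z1ΔC. The step between the DKO lines was 0.27, with a combined software error of 0.204.

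MAFK, the second small MAF protein measured, stood at 5.43 times the 75th percentile in wild type, 7.87 times in DKO + H2A.Z1 and 8.57 times in DKO + H2A.Z1ΔC. Its difference from wild type was 0.54 (log2, 1.45-fold) in DKO + H2A.Z1 and 0.66 (1.58-fold) in DKO + H2A.Z1ΔC. The 2 DKO arrays differed by 0.12, less than the combined software error of 0.204. It was more than 0.0965, the standard deviation of such a difference from repeated spots within these arrays. With the matrix value of 10.1 times in DKO + H2A.Z1 their order turned, to a difference of -0.24, while MAFK remained higher than in wild type by 0.90. Before scaling, the processed signals of JUN, MAFF and MAFK were brightest on the DKO + H2A.Z1 array (12251 units for MAFK, against 8904 in DKO + H2A.Z1ΔC and 7899 in wild type). The 75th percentile was 1557 units on that array, 1039 on the DKO + H2A.Z1ΔC array and 1455 on the wild-type array, so the unscaled signals order the DKO lines the other way.

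FOS encodes c-Fos, which binds DNA only as a dimer with a partner such as JUN. Probe 1 of FOS stood at 0.0836 times the 75th percentile in wild type, 0.0624 times in DKO + H2A.Z1 and 0.0512 times in DKO + H2A.Z1ΔC. Probe 2 stood at 0.0440, 0.0432 and 0.0488 times. The matrix values in DKO + H2A.Z1 were 0.0800 times for probe 1 and 0.0414 times for probe 2. Probe 1 was therefore lowest in DKO + H2A.Z1ΔC, whereas probe 2 was highest there and varied little. In DKO + H2A.Z1ΔC against wild type they differed by -0.71 and 0.15 (log2). A gap of this size, 0.85, or more was seen in 3.92% of 1404 genes with a pair of probes. The mean difference of -0.28 for FOS thus averages probes that do not agree, and no direction is given for this gene.

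EGR1 encodes a zinc-finger transcription factor induced by the same signals as FOS. Probe 1 of EGR1 read 6.68, 4.99 and 8.58 units of processed signal in wild type, DKO + H2A.Z1 and DKO + H2A.Z1ΔC, with software errors of 31.5%, 42.2% and 16.1%. Probe 2 read 5.72, 2.23 and 7.54 units, with errors of 40.3%, 99.6% and 18.5%. Both probes were called well above background on the DKO + H2A.Z1ΔC array and not on the others. The lowest signal so called was also lower on that array, at 0.00517 times the 75th percentile against 0.00681 in wild type and 0.00639 in DKO + H2A.Z1. On an array where a probe is not well above background it has only a bound, set by the lowest signal among probes that are. EGR1 in DKO + H2A.Z1ΔC read 1.21-fold and 1.07-fold of this bound for wild type, for probes 1 and 2. For DKO + H2A.Z1 the figures were 1.29-fold and 1.13-fold. They leave out the software errors of the DKO + H2A.Z1ΔC readings, 16.1% and 18.5%, so no direction is given for EGR1. These figures lie so near to equal signal that a difference of 2-fold could be neither shown nor set aside at this signal. EGR1 in DKO + H2A.Z1 stood at 0.00320 and 0.00143 times the 75th percentile by the scanner, and at 0.00371 and 0.00373 times by matrix values. It stood at 0.00459 and 0.00393 times in wild type and 0.00826 and 0.00725 times in DKO + H2A.Z1ΔC.

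FOSL2, a FOS relative, read 8.68, 7.43 and 3.34 units in wild type, DKO + H2A.Z1 and DKO + H2A.Z1ΔC, with software errors between 28.9% and 38.2%. Its matrix value in DKO + H2A.Z1 was 0.00764 times the 75th percentile, against 0.00477 times by the scanner. MAFA, a large MAF protein known for its roles in the lens and in insulin-producing cells, read 2.71, 2.63 and 1.64 units, with errors between 87.9% and 99.6%. Its matrix value was 0.00430 times the 75th percentile, against 0.00169 times by the scanner. Neither was called well above background on any scanner array, so no fold is given for them.

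**Figure D1:**
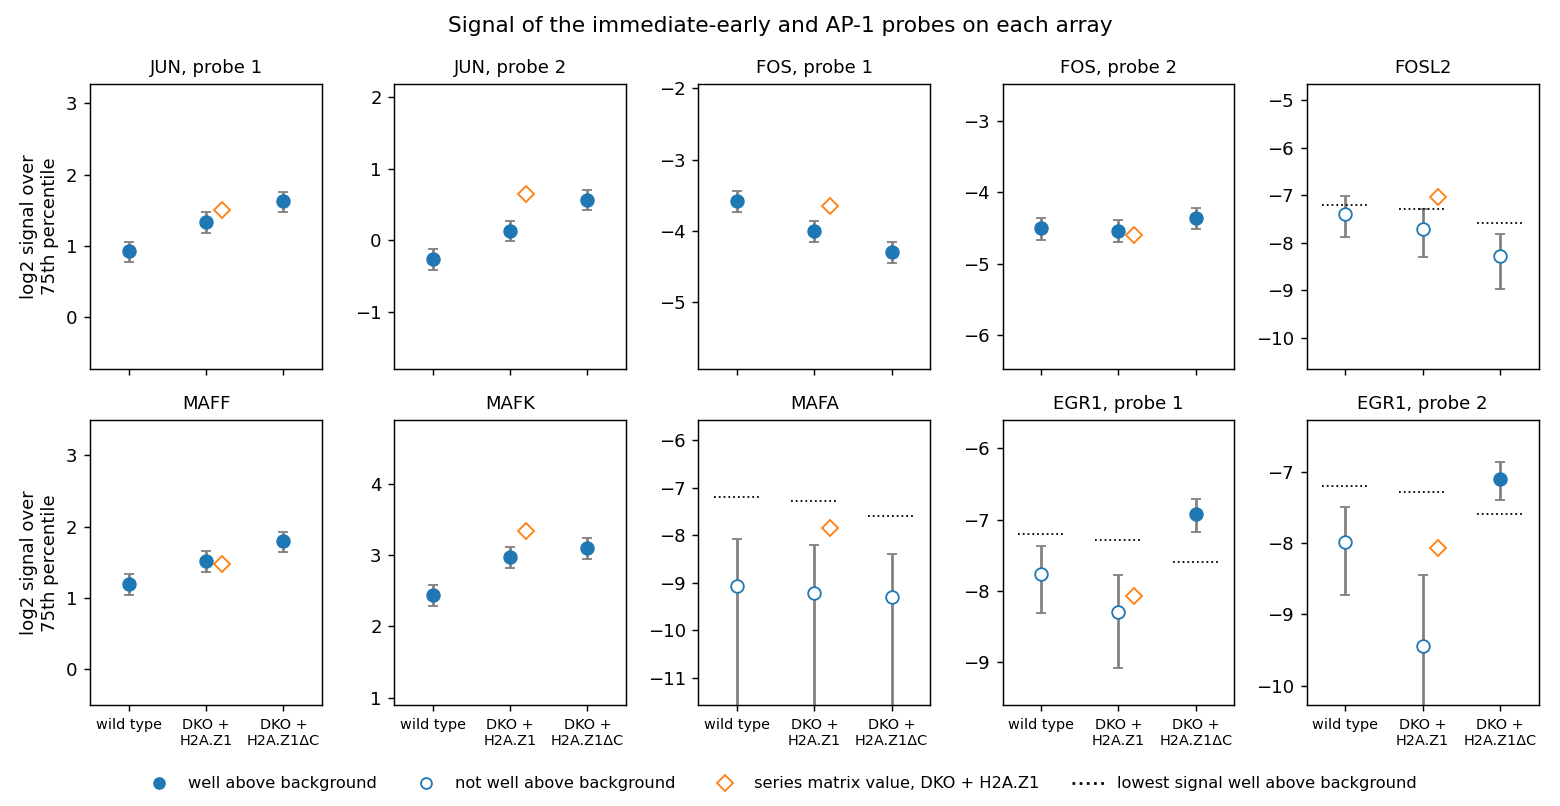
Each panel plots 1 probe, with the log2 signal over the array's 75th percentile on the vertical axis and the 3 arrays on the horizontal axis. Every panel has its own vertical range. Filled circles are well above background and open circles are not, bars give the scanner software's error (cut off where it nears the signal itself), open diamonds are the matrix values of DKO + H2A.Z1, and dotted lines mark the lowest signal well above background. JUN, MAFF and MAFK climb from wild type to DKO + H2A.Z1ΔC, the FOS probes part, and the circles of FOSL2, MAFA and EGR1 lie under the dotted lines except EGR1 on the DKO + H2A.Z1ΔC array. The FOSL2 diamond lies above its dotted line.

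The comparison of DKO + H2A.Z1 with wild type sets the double-knockout cells carrying full-length H2A.Z1 against wild-type cells. The H2AFZ probes differed by -5.06 and -6.48 (log2) between these arrays, or -5.53 and -6.81 by matrix values. Whether they read the introduced H2A.Z1 was not tested, and no protein was measured here. Here 0 of 4 measured members passed 2-fold, where 3.37% of 4218 named genes did so in either direction. JUN, MAFF and MAFK, 3 of the 4, had differences above 0, against 46.4% of named genes. Their differences exceeded those of 93.7% of named genes for JUN, 90.9% for MAFF and 96.3% for MAFK, and by matrix values those of 95.4%, 81.8% and 96.8%. At 1.5-fold, 0 members were called higher, against 3.13% of genes by scanner values. With the matrix values JUN at 0.75 and MAFK at 0.90 passed it, but the share of genes was not counted for that set. Matrix differences of all named genes spread wider, with a 95th percentile of 0.72 against 0.46 by the scanner. The mean difference of FOS was -0.23 (log2), from probes at -0.42 and -0.03. With the matrix values it was -0.08, from probes at -0.06 and -0.09. The scanner arrays of these lines shared slide 1, whereas the source array of the matrix values is unknown. With 1 array per line, array and line cannot be told apart here either.

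The comparison of DKO + H2A.Z1ΔC with DKO + H2A.Z1 sets the truncated form against the full-length one. The arrays also differed in slide and scan, and both H2AFZ probes were lower in DKO + H2A.Z1ΔC. The loss of the C-terminus cannot be told apart from these. By scanner values the mean over probes differed less here for each member than in DKO + H2A.Z1 against wild type. By matrix values FOS and MAFF differed more. Single probes did not all follow the scanner means. Probe 2 of JUN was at 0.44 here and 0.40 there, and probe 2 of FOS at 0.18 and -0.03. Again 0 of 4 members passed 2-fold, where 4.65% of 4237 named genes did. Differences (log2) were 0.36 for JUN, 0.27 for MAFF, 0.12 for MAFK and -0.05 for FOS, so 3 of 4 were above 0, against 52% of genes. The FOS mean averages probes at -0.28 and 0.18, so no size is read from it. At 1.5-fold, 0 members were called higher, against 7.84% of genes. With the matrix values the differences were 0.02 for JUN, 0.32 for MAFF, -0.24 for MAFK and -0.20 for FOS, the last from probes at -0.64 and 0.23. MAFF alone of the 4 kept a positive difference of similar size with both sets.

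The comparison of DKO + H2A.Z1ΔC with wild type gives the joint difference and uses no value of the DKO + H2A.Z1 sample. No member passed 2-fold (0 of 4), where 6.92% of 4263 named genes did. JUN was higher by 0.77 (log2, 1.70-fold), MAFK by 0.66 and MAFF by 0.60, and 3 of 4 members were above 0, against 49.9% of genes. All 3 passed 1.5-fold, as did 8.87% of named genes in that direction. Their differences exceeded those of 94.6% of named genes for JUN, 92.8% for MAFK and 91.5% for MAFF. The difference of FOS minus that of JUN was -1.05, a contrast that scaling between arrays leaves as it is. It rests on the FOS mean, whose probes were at -0.71 and 0.15, so no size is read from it. With normexp and the 75th percentile FOS was at 0.04 beside 0.80 for JUN. With normexp and quantile normalization FOS was at -0.19 beside 0.81 for JUN. The cause of these shifts was not tested. With median scaling 2 of the 4 passed 1.5-fold, because MAFF stood at 0.54. This comparison shares the wild-type array with that of DKO + H2A.Z1, so the higher values against wild type in both are not independent.

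**Figure D2:**
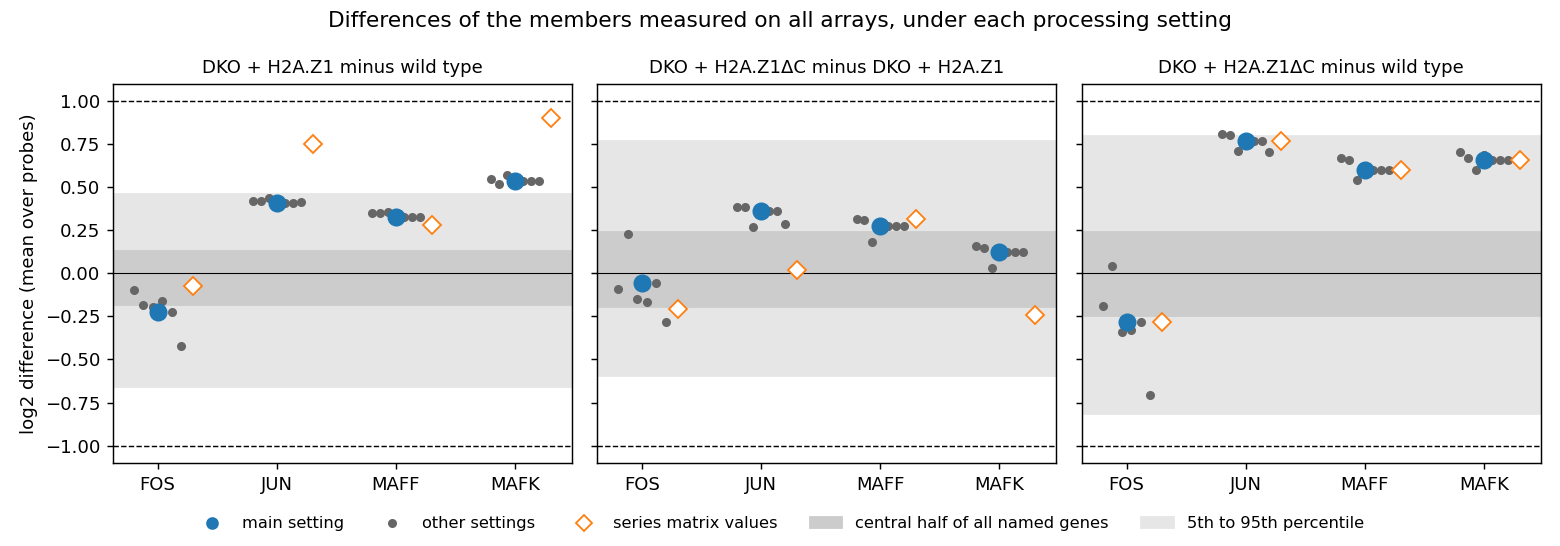
Log2 differences (vertical axis) of FOS, JUN, MAFF and MAFK in the 3 comparisons, as means over a gene's probes. Large circles are the main setting, small circles the other settings, and open diamonds the matrix values, dashed lines mark 2-fold, and the light and dark bands hold the 5th to 95th percentile and the central part of all named genes. JUN, MAFF and MAFK lie near the upper edge of the light band in both comparisons with wild type, while between the DKO lines the diamonds of JUN and MAFK fall to 0.02 and -0.24.

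By scanner values, among 4194 named genes measured on all arrays, 928 (22.1%) had the order wild type, DKO + H2A.Z1, DKO + H2A.Z1ΔC from lowest to highest, as JUN, MAFF and MAFK did. Each of the DKO arrays exceeded wild type by 0.3 or more on the log2 scale in 271 genes (6.46%), which include these 3, at a size set after their values were seen. Likeness of pattern was measured, by scanner values only, as the distance over the 3 arrays after each gene was centred on its own mean. MAFF lay 0.119 from JUN and ranked 56 among 4193 genes, and MAFK lay 0.168 from JUN and ranked 119. FOS lay 0.746 from JUN and ranked 3060, a distance that rests on the mean of 2 probes that do not agree, so no size is read from it. The genes closest to JUN were ACAA1, DFFB and GSTK1, at 0.012, 0.014 and 0.019. The naming rule covered members past 2-fold, of which there were none, so these genes were named after the values were seen, and with 3 arrays many genes lie this near to any pattern.

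The wider pathway was described by gene lists, each read beside the shares of all named genes past 2-fold given above. Shares of named genes past 2-fold or above 0 are by scanner values. None was counted for the matrix values of DKO + H2A.Z1, so matrix counts have no such share beside them. Of 28 further leucine-zipper factors, 13 were measured in each comparison. CEBPA, a factor best known from myeloid cells, fat and liver, was lower in DKO + H2A.Z1ΔC than in wild type by 2-fold or more, at -1.17 (log2), and no other gene of the list passed 2-fold there. In DKO + H2A.Z1 against wild type CEBPA was at -0.64 by the scanner and at -1.07 by the matrix, so that 0 of the 13 passed with the scanner values and 1 with the matrix values. Between the DKO lines 0 passed with either set. The medians of this list were -0.19 in DKO + H2A.Z1 against wild type, -0.02 between the DKO lines and -0.07 in DKO + H2A.Z1ΔC against wild type, beside medians of -0.02 and 0.02 in the first pair of comparisons and of under 0.01 in size in the last, over all named genes. With the matrix values the first and second list medians were -0.08 and 0.05. MAFG and NFE2L2 were picked for their relation to the small MAF members after their values were seen. MAFG, the remaining small MAF gene, was at -0.20 in DKO + H2A.Z1 (-0.35 by matrix values) and -0.23 in DKO + H2A.Z1ΔC against wild type. NFE2L2, which encodes NRF2, a partner of the small MAF proteins, was at -0.31 (-0.69 by matrix values) and -0.59. Both were thus on the opposite side of 0 from MAFF and MAFK. NFE2L1, from the same list, was at 0.26 in DKO + H2A.Z1ΔC against wild type, on the side of MAFF and MAFK. In DKO + H2A.Z1 against wild type it was at -0.05 (0.17 by matrix values). Of the 13 measured genes, 4 were above 0 in DKO + H2A.Z1 against wild type (5 by matrix values), against 46.4% of named genes. In DKO + H2A.Z1ΔC against wild type 5 were, against 49.9%.

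Of 27 other immediate-early genes, 7 were measured, and 0 passed 2-fold in any comparison with either set of values. In DKO + H2A.Z1ΔC against DKO + H2A.Z1 all 7 had a scanner difference above 0, against 52% of named genes, with a median of 0.20. With the matrix values 4 of the 7 were above 0 and the median was 0.02. Their median was -0.24 in DKO + H2A.Z1 against wild type, which turned to 0.20 with the matrix values, and 0.21 in DKO + H2A.Z1ΔC against wild type. DUSP1, an early-induced phosphatase that inactivates MAP kinases, was named after its values were seen. It was at 0.50 in DKO + H2A.Z1 (0.47 by matrix values) and 0.70 in DKO + H2A.Z1ΔC against wild type, near the values of JUN. The list as a whole did not follow JUN in DKO + H2A.Z1 against wild type. There DUSP1 was the 1 gene of 7 above 0 by scanner values, against 46.4% of named genes, and 4 of 7 were by matrix values. In DKO + H2A.Z1ΔC against wild type 4 of 7 were above 0, against 49.9%.

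Of 30 kinases, RAS proteins and SRF partners upstream of the immediate-early genes, 15 were measured. In DKO + H2A.Z1 against wild type MAPK11, a p38 MAP kinase, passed 2-fold at 4.65 (log2) by the scanner and 5.50 by the matrix. HRAS, a RAS protein, was at 0.65 there by the scanner and past 2-fold at 1.68 by the matrix, so the count was 1 or 2 by the set of values used. In DKO + H2A.Z1ΔC against wild type MAPK11 was at 5.37 and HRAS at 2.15. MAPK11 was well above background with 1 of 3 probes in wild type and with all 3 in both DKO lines. Between the DKO lines HRAS passed 2-fold at 1.51, but stood at 0.47 with the matrix values. The medians of this list were 0.13, 0.06 and 0.18 in the order of comparisons used above, and the first and second were -0.0030 and 0.13 with the matrix values. SRF, the factor through which serum induces FOS, did not pass 2-fold and was named outside the naming rule. It was at 0.23 in DKO + H2A.Z1 against wild type by the scanner but at -0.11 by the matrix. In DKO + H2A.Z1ΔC against wild type it was at -0.12.

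Of 18 feedback inhibitors of these pathways, 6 were measured. SPRY2, a Sprouty inhibitor of receptor kinase signalling, passed 2-fold in DKO + H2A.Z1 against wild type at 1.09 (log2), or 0.76 with the matrix values. In DKO + H2A.Z1ΔC against wild type SPRY2 was at 0.83. RGS2, a regulator of G-protein signalling, passed it in DKO + H2A.Z1ΔC against wild type at 1.02 and between the DKO lines at 1.01, the latter 0.42 with the matrix values. The list's median was 0.06 in DKO + H2A.Z1 against wild type (0.42 by matrix values) and 0.17 between the DKO lines (0.01 by matrix values). In DKO + H2A.Z1ΔC against wild type it was 0.55, with 5 of 6 genes above 0, against 49.9% of named genes. Of 18 targets of NRF2 and small MAF dimers, 11 were measured and 0 passed 2-fold in any comparison. Their medians were -0.04, 0.11 and 0.23 in the order used above, the first and second being -0.01 and 0.06 with the matrix values.

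**Figure D3:**
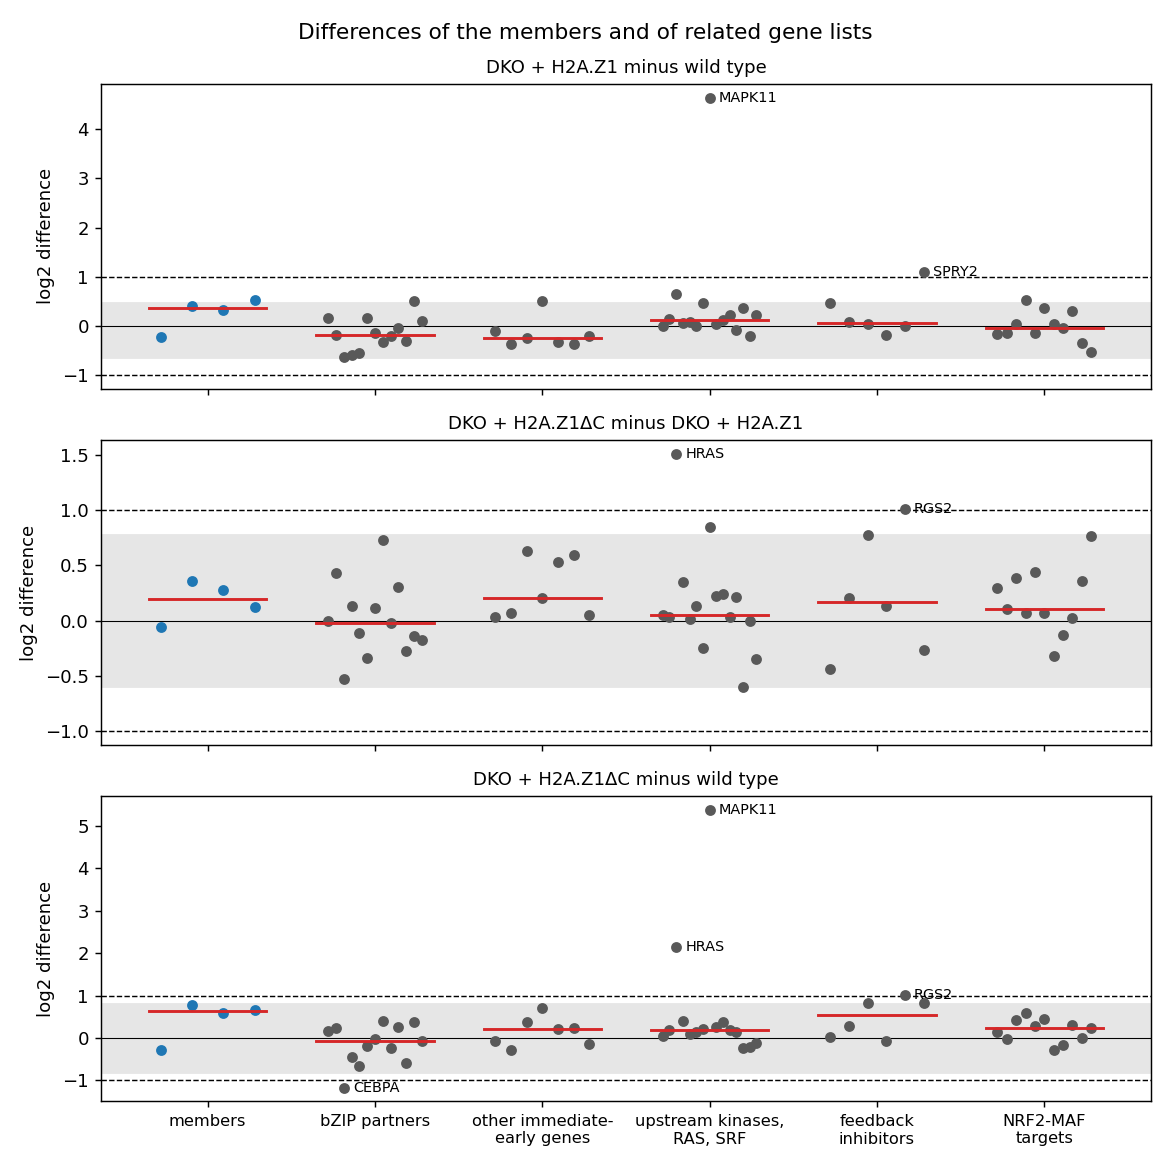
Log2 differences by scanner values (vertical axis) of the measured members and of 5 related gene lists (horizontal axis), 1 panel per comparison with its own vertical range. Points are genes in alphabetical order within a list, red bars are medians, dashed lines mark 2-fold, the grey band holds the 5th to 95th percentile of all named genes, and genes past 2-fold are named. The members stay within 2-fold in every panel, and MAPK11 stands far above the other upstream genes in both comparisons with wild type.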

How the data were processed

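Groups were taken from the sample labels, with 1 array each. Scanning used Agilent Feature Extraction (version 11.5.1.1, per the file headers). The deposited processed signal is a linear intensity, background-subtracted and detrended within its own array and not scaled to the others. The deposited series matrix holds a second intensity, and how it was made is not given in the sources used here. Control spots and 7 probes with a flagged spot were left out. Values were log2 of processed signal over the array's 75th percentile. A gene's difference was the mean over its probes well above background on both arrays, and 2-fold was the threshold. With no replicates no test was made. Probes were named by unversioned accession through RefSeq genes of assembly GRCg7b (11935 of 43603 probes). The array was annotated on galGal3, so no coordinates are given. Alternatives used limma 3.58.1 for normexp (offset 50) and quantile normalization. The calculation of differences was tested on simulated data with known 4-fold changes and noise near that of repeated spots. These changes were larger than any difference of the measured members, so differences of the size seen here were not tested. All 9 members were named, and of the related gene lists genes past 2-fold (at most 3 per list and comparison) or with a bound of 4-fold. From those lists MAFG, NFE2L1, NFE2L2, DUSP1 and SRF were named outside this rule. Members and lists were chosen with earlier results of these data known. Repeated spots of a probe had a log2 standard deviation of 0.0743 in wild type, 0.0702 in DKO + H2A.Z1 and 0.0661 in DKO + H2A.Z1ΔC. The number of arrays limits the precision.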

Additional observations from a re-analysis of the deposited data

How the results depend on the processing

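The count of members past 2-fold stayed at 0 in all 3 comparisons under normexp (followed by quantile normalization, or by the 75th percentile), median scaling, quantile normalization, the matrix values, no background filter, brighter probes and the brightest probe per gene. A 1.5-fold threshold gave 3 in DKO + H2A.Z1ΔC against wild type and 0 in the others. Of the members' differences under these alternatives, 85 moved by less than the spread between probes of a gene and 8 by more. The 85 include values that could not move, because the setting used the same probes and signals as the main one. They came from the settings without a background filter and with brighter probes, and from the brightest probe for MAFF and MAFK. In DKO + H2A.Z1ΔC against wild type they also came from the matrix values. Against wild type, JUN, MAFF and MAFK were above 0 in all 9 settings, which include these repeats of the main value. They ranged from 0.28 (MAFF) to 0.90 (MAFK) in DKO + H2A.Z1 and from 0.54 (MAFF) to 0.81 (JUN) in DKO + H2A.Z1ΔC. Between the DKO lines MAFK turned to -0.24 with the matrix values. FOS ranged from -0.71 with the brightest probe to 0.04 with normexp and the 75th percentile in DKO + H2A.Z1ΔC against wild type, and from -0.28 to 0.23 between the DKO lines; the cause was not tested. No paired analysis was possible because each group is 1 array, so no replicate could be left out. Signal over background limits EGR1, FOSL2 and MAFA.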
